A study of Mus musculus with 8 samples.

Results

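The genes described here encode the subunits of the receptors for glutamate, GABA and glycine in mouse neural progenitor cells. They were taken by symbol from the deposited count table: the AMPA (Gria), kainate (Grik), delta (Grid), NMDA (Grin) and metabotropic (Grm) glutamate receptor genes, the GABA-A (Gabra to Gabrr) and GABA-B (Gabbr) receptor genes, and the glycine receptor genes (Glra, Glrb). This gave 52 of the 32499 genes of the table. Of these, 26 encode glutamate receptor subunits, 21 encode GABA receptor subunits and 5 encode glycine receptor subunits.

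RNA-seq was made from cells of the neural tube of C57BL/6 mice on embryonic day 14, with 4 libraries each under the labels 53BP1KO and Ctrl (the controls). The KO embryos carried the targeted allele Trp53bp1tm1Jc from their mothers and in-frame deletions of the same gene, made by CRISPR in zygotes, from their fathers, and the controls were wild-type embryos, per the labels' protocols. 53BP1 is a chromatin protein of DNA double-strand break repair. Tubes were dissociated with collagenase and cells were sorted with NeuroFluor CDr3, a dye for Fabp7, the radial glial protein that carries fatty acids. The protocols say that sorted cells were either used directly or cultured in a differentiation medium first, and do not say which holds for which library, nor that the libraries of a group came from separate embryos. The p-values therefore speak only of how far these libraries scatter, and that scatter may be technical.

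Total counts lay between 11081419 and 24339621 a library. Trp53bp1, which encodes 53BP1, had 412 to 497 counts in the controls and 341 to 617 in the 53BP1KO libraries, so its RNA did not separate the groups; a read count per gene does not show an in-frame deletion. Xist, the RNA of the inactive X chromosome, had 23853 to 26134 counts in every control and 9 to 16 in the 53BP1KO libraries, while the Y-linked Ddx3y stood at 0 counts in every control and 579 to 1064 in the others. Genotype label and sex thus coincide in 8 of 8 libraries and cannot be told apart in any comparison below. The summed normalised read count of the 10 progenitor and radial glia markers was 9545 to 11631 CPM (counts scaled to library size) in the controls and 9050 to 12475 CPM in the 53BP1KO libraries. The 12 neuronal markers summed to 422 to 550 and 388 to 468 CPM. Single genes carried both sums. Fabp7, the target of the sorting dye, averaged 7591 CPM in controls and 7793 CPM in 53BP1KO libraries, and Map2 averaged 389 and 345 CPM. The neuronal markers Rbfox3, Stmn2, Dcx and Nefm averaged 0.654 to 2.26 CPM in either group. Other neuronal markers were higher, among them Tubb3 at 22.7 CPM in controls and 36.2 CPM in 53BP1KO libraries. Syt1 averaged 15.4 and 8.83 CPM, Elavl4 8.72 and 6.14 CPM, and Snap25 5.54 and 2.52 CPM.

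Glutamate is the main excitatory transmitter of the central nervous system, and GABA and glycine are the main inhibitory ones. AMPA, kainate, NMDA, GABA-A and glycine receptors are ion channels built from several subunits, and metabotropic glutamate and GABA-B receptors signal through G proteins. In the embryo these transmitters act before synapses form: radial glia and progenitors carry some of the receptors, and GABA often depolarises young cells because their chloride level is high.

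Upstream sequences are shown for 4 genes on which the results below turn: Gria2 (the AMPA gene of highest level), Gabbr2 (the largest rise among well detected subunits), and Gabra2 and Gabra4 (neighbours on chromosome 5 that behaved differently across libraries). Each is the window of 250 bases before the gene's start in RefSeq, build GRCm38.p6, all on the minus strand: chr3:80802836-80803085 for Gria2, chr4:46991715-46991964 for Gabbr2, chr5:71095850-71096099 for Gabra2 and chr5:71658309-71658558 for Gabra4. Capitals mark the GC box, GGGCGG or its reverse complement CCGCCC.
Gria2: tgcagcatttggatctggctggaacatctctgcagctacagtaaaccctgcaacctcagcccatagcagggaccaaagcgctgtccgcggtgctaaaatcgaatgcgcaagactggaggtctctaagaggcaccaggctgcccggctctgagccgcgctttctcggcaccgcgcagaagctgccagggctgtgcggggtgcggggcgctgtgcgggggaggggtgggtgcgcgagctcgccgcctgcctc
Gabbr2: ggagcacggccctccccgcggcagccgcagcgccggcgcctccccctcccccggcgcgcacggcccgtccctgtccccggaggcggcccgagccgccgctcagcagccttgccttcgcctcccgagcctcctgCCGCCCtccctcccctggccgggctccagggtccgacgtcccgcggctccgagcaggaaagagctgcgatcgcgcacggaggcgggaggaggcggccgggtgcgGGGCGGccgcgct
Gabra2: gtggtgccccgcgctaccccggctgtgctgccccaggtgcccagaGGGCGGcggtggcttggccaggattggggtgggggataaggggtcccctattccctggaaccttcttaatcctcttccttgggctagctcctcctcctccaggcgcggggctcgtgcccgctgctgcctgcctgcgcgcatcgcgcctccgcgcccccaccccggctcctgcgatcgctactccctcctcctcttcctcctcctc
Gabra4: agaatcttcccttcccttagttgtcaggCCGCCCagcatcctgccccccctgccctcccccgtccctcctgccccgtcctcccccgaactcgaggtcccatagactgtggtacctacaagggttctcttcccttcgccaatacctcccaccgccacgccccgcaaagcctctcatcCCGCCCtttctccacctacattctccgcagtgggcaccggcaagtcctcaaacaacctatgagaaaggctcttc

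A RefSeq window was found for 36 of the 52 genes, 43 windows in all. The GC box was in 21 of these 43 windows (48.8%), belonging to 20 genes, and in 32.7% of all 32851 windows of that length. Among the 4 windows shown, that of Gria2 holds no such letters, that of Gabra2 holds 1 match, and those of Gabbr2 and Gabra4 hold 2 matches each. Their GC content is 64.8%, 80.8%, 70.0% and 61.2% for Gria2, Gabbr2, Gabra2 and Gabra4. The letters CAGCTG, an E-box read by proneural factors, were in the windows of 2 genes, Gabrp and Glra3, and in 13.0% of all windows. TGATGNAA, a composite element of ATF4 and C/EBP, was in the windows of Gabra6 and Grm7 and in 3.45% of all windows. Both strands were searched. A match describes letters only.

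A subunit gene was called detected in a library with at least 3 counts, which equals 0.126 to 0.261 CPM depending on depth. By that measure 38 of the 52 genes were detected in all 8 libraries and 1, Gabrd, in none. The controls detected 45 to 50 genes each and the 53BP1KO libraries 40 to 46. Over the whole table, 23621 to 27166 genes had a count in each control and 19493 to 24381 in each 53BP1KO library. 53BP1KO libraries 1 and 4, which detected 40 subunit genes each, had the fewest genes with a count, 19493 and 22309. The lower detection is thus not particular to the subunit genes. 53BP1KO libraries 1 and 4 also had the highest total counts, 20457680 and 24339621. The library of lowest total, 53BP1KO library 2 at 11081419 counts, detected 45 subunit genes. All AMPA, kainate, delta and NMDA genes but Grin3b passed the filter on low counts that precedes testing, which left 37 genes of the 52 to test. The 15 genes that failed it include Grin3b, Grm2, Grm6, Gabra5, Gabra6, Gabrd, Gabre, Gabrp, Gabrr3, Glra1, Glra2, Glra3 and Glra4.

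Levels of different genes were compared per kilobase of exon. Grm3, a group II metabotropic receptor gene known from astrocytes and glial progenitors, had the highest level, 51.1 CPM per kilobase in the controls and 37.9 in the 53BP1KO libraries. Grm5, a group I metabotropic receptor gene, came second with 26.1 and 28.4 CPM per kilobase. Gria2 followed at 17.3 and 9.41, and Grid1 at 6.18 and 9.56. Gabra2, at 5.18 and 7.29 CPM per kilobase, was the most abundant ionotropic GABA receptor gene. Gabbr2 moved in this order from rank 11 in the controls (2.39 CPM per kilobase) to rank 6 (6.00), and Gria2 and Grid1 exchanged ranks 3 and 4. Grin1, the subunit that NMDA receptors need, stood at rank 23 in the controls with 0.697 CPM per kilobase, below Grin3a at 4.02 and Grin2a. In CPM not scaled by length, the controls averaged 213 for Grm5, 181 for Gria2 and 156 for Grm3. The order of these genes per kilobase thus rests on the exon lengths used.

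**Figure D1:**
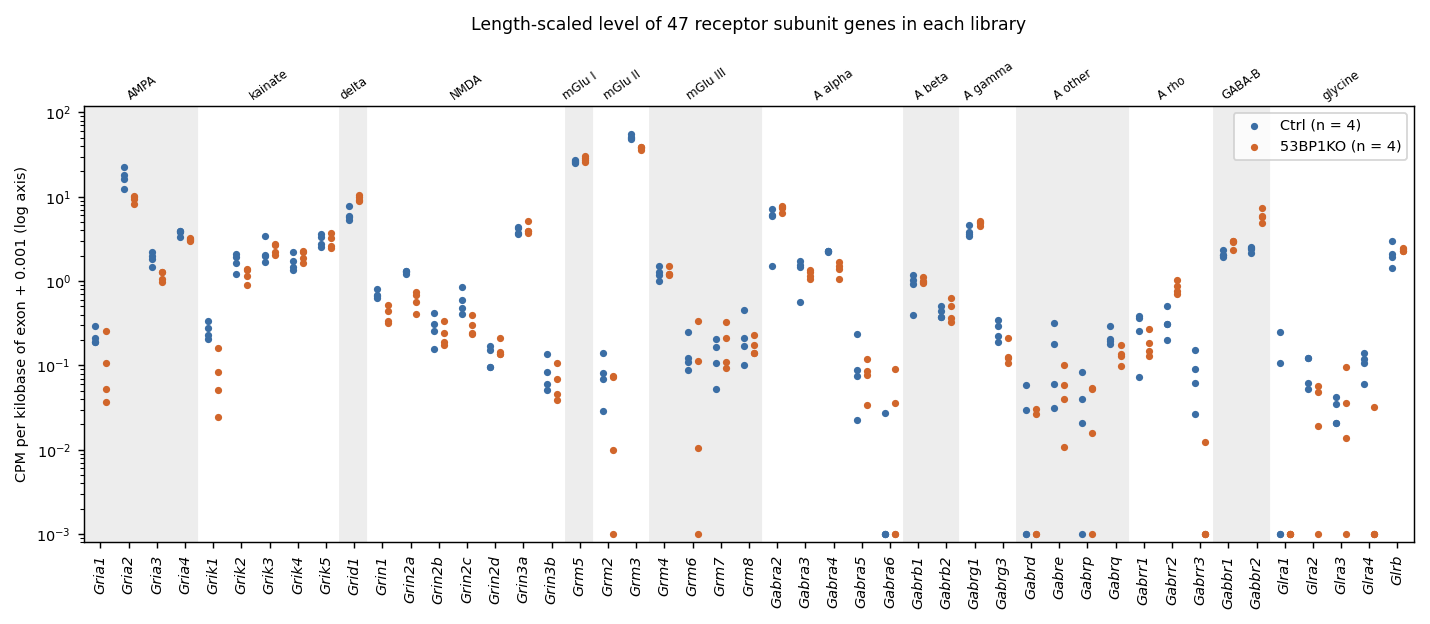
Level of 47 of the 52 subunit genes in CPM per kilobase of exon (log axis, 0.001 added so that libraries at 0 appear), 1 point per library, blue for the 4 controls and orange for the 4 53BP1KO libraries, with receptor classes shaded in turn. Grm3 and Grm5 lie highest, followed by Gria2 and Grid1, and genes such as Glra1, Gabrd and Gabra6 reach 0 in some libraries.

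Of the 37 tested genes, 15 passed an adjusted p of 0.05 (quasi-likelihood test of edgeR, Benjamini-Hochberg correction over all 15021 genes). That is 40.5% of the tested subunit genes, beside 30.0% of all genes tested. Higher in the 53BP1KO libraries were 5 genes (13.5%, beside 16.1% of all genes), Gabbr2, Gabrr2, Grid1, Gabbr1 and Gabrg1. Lower were 10 genes (27.0%, beside 13.9% of all genes), Grik1, Grin2a, Grin2c, Gabrg3, Gria2, Grin1, Gria3, Gabra4, Grik2 and Grm3. For 13 of the 37 genes the groups were fully separate, 3 higher and 10 lower, beside 29.9% of all genes. The median log2 fold change was -0.03 over the subunit genes and 0.0011 over all genes. At an unadjusted p of 0.05, 17 of the 37 passed. The share of all genes at that level is not given here, so this count shows no excess.

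Ionotropic glutamate receptor genes had 7 lower (41.2%) and 1 higher (5.88%) among 17 tested, and GABA receptor genes had 4 higher (30.8%) and 2 lower (15.4%) among 13, beside the 16.1% higher and 13.9% lower of all genes. The shares called in either direction were close, 47.1% and 46.2%. Both GABA-B genes were among the higher GABA receptor genes. The 11 tested GABA-A genes, rho included, had 2 higher and 2 lower (18.2% each), near the shares of all genes. Of 6 metabotropic glutamate receptor genes tested, 1 was lower (16.7%, near the 13.9% of all genes). Classes were not tested against each other. The 1 tested glycine receptor gene, Glrb, did not pass. Of the 6 subunit genes on the X chromosome 3 were tested (Gria3, Gabra3 and Gabrq), all 3 with a negative log2 fold change and 1 of them, Gria3, past the threshold. In bulk RNA such as this, fewer cells of a type and less RNA per cell cannot be told apart. Of the 15 calls, 8 were kept when any 1 library was left out (Gabbr2, Gabra4, Gabrr2, Gria2, Gria3, Grid1, Grin2a and Grm3), and each of the other 7 was lost in at least 1 such fit.

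**Figure D2:**
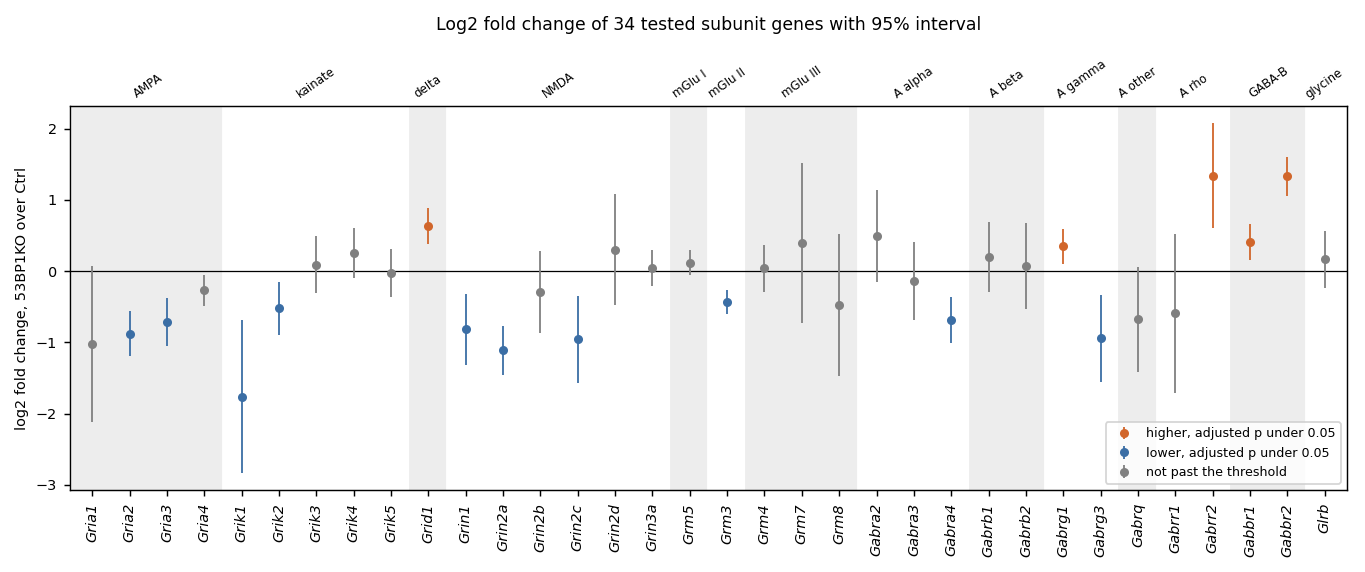
Log2 fold change of 34 of the 37 tested subunit genes, 53BP1KO over control, with the 95% interval from edgeR's fit; orange marks higher and blue lower genes past the threshold and grey the rest, and shading separates the receptor classes. All 4 AMPA genes lie below 0 and both GABA-B genes lie above it.

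AMPA receptors carry fast excitation, and their 4 subunit genes all had a negative log2 fold change (median -0.79). Of these, 2 passed the threshold as lower (50%, beside 13.9% of all genes). Gria2 encodes the subunit whose edited form makes the channel nearly impermeable to calcium. It had 128, 168, 189 and 239 CPM in controls 1 to 4 and 97.9, 107, 86.0 and 104 CPM in 53BP1KO libraries 1 to 4. Every control was above every 53BP1KO library. The means were 181 ± 46.1 and 98.6 ± 9.21 CPM (SD, n = 4), and Gria2 fell by 0.88 on the log2 scale (SE 0.15, edgeR's quasi-likelihood adjusted p = 0.000526). Gria3, an X-linked AMPA subunit gene, had 7.89, 10.9, 12 and 9.96 CPM in the controls and 5.71, 7.06, 6.93 and 5.32 CPM in the 53BP1KO libraries. Its groups did not overlap either, and it fell by 0.71 (SE 0.16, edgeR adjusted p = 0.0036).

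Gria4 and Gria1 did not pass the threshold. Gria4, which encodes a subunit of early-forming and fast AMPA receptors, had 20.8, 25.1, 24.9 and 24.1 CPM in the controls and 19.9, 18.8, 20.6 and 19.2 CPM in the 53BP1KO libraries. The groups did not overlap, yet its log2 fold change of -0.27 (SE 0.10) had an edgeR adjusted p of 0.0589. It passed with DESeq2 (adjusted p = 0.0422), with RLE or upper-quartile scaling, with the filter at 1 CPM, with voom, and in edgeR without control 1 (-0.33, adjusted p = 0.0278). Its adjusted p ran from 0.0143 to 0.36 over all alternatives. Gria1 was low, at 1.28 ± 0.278 and 0.645 ± 0.573 CPM (SD, n = 4), and 53BP1KO library 3, at 1.47 CPM, stood among the controls. Without that library its log2 fold change moved from -1.02 (edgeR adjusted p = 0.15) to -1.89 (adjusted p = 0.0118, with 0.00361 to 0.363 over all alternatives). The summed level of the AMPA genes was 158 to 274 CPM in the controls and 115 to 133 CPM in the 53BP1KO libraries. Within that sum, scaled by exon length, Gria2 took 74.2% ± 3.78 in the controls and 68.1% ± 3.52 in the 53BP1KO libraries, and Gria4 took 16.6% ± 2.52 and 22.7% ± 2.02 (SD, n = 4).

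Kainate receptors modulate excitation and transmitter release, and 2 of their 5 subunit genes were lower (40%, beside 13.9% of all genes). Grik1 was near the lower limit of testing, at 0.877, 0.977, 1.42 and 1.16 CPM in the controls and 0.0984, 0.348, 0.676 and 0.21 CPM in the 53BP1KO libraries. Every 53BP1KO library lay below every control, and Grik1 fell by 1.76 (SE 0.50, edgeR adjusted p = 0.0162). The call was lost without 53BP1KO library 1, 53BP1KO library 4 or control 3 (adjusted p = 0.0537, 0.0696 and 0.0567). Grik2 had 12.6, 19.8, 17.2 and 21.7 CPM in the controls and 12, 14.3, 9.19 and 14.0 CPM in the others. Control 1 lay among the 53BP1KO libraries, and Grik2 fell by 0.52 (SE 0.17, edgeR adjusted p = 0.035). This call was lost without 53BP1KO library 1 or 3, or without control 2, 3 or 4, with adjusted p from 0.057 to 0.0921.

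Grik5, which encodes a subunit that joins other kainate subunits and raises their affinity, had the highest level per kilobase of the class. It had 13.6, 9.55, 12.6 and 10.3 CPM in the controls and 9.79, 14.1, 9.30 and 12.3 CPM in the 53BP1KO libraries. These ranges lay on top of each other (log2 fold change -0.03, SE 0.16, 95% interval -0.37 to 0.31). Grik3 averaged 20.4 ± 6.88 and 21.7 ± 3.10 CPM, with control 4 highest of all at 30.5 CPM (log2 fold change 0.09, edgeR adjusted p = 0.76). Grik4 averaged 10.1 ± 2.29 and 11.9 ± 1.79 CPM (log2 fold change 0.25, edgeR adjusted p = 0.273). Without control 4 Grik4 passed, at 0.40 (adjusted p = 0.0478, with 0.0115 to 0.551 over all alternatives).

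The delta receptors resemble ionotropic glutamate receptors in sequence and serve mainly as synaptic organisers that bind cerebellins. Grid1 had 33.7, 30.4, 32.9 and 44.4 CPM in the controls and 56.0, 53.0, 50.5 and 59.2 CPM in the 53BP1KO libraries. All 53BP1KO libraries lay above all controls. Grid1 rose by 0.63 on the log2 scale (SE 0.12, edgeR adjusted p = 0.00107), from 35.4 ± 6.19 to 54.7 ± 3.79 CPM (SD, n = 4), the 1 rise among the ionotropic glutamate receptor genes.

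NMDA receptors combine the obligatory subunit of Grin1 with subunits of Grin2 or Grin3 genes. Of 6 tested genes, 3 were lower (50%, beside 13.9% of all genes), with a median log2 fold change of -0.56. Grin2a had 18, 19.6, 19.2 and 19.6 CPM in the controls and 10.2, 11.2, 8.34 and 6.08 CPM in the 53BP1KO libraries. The controls were close together and every 53BP1KO library was well below them. Grin2a, the Grin2 subunit gene best known from mature neurons, fell by 1.11 (SE 0.16, edgeR adjusted p = 0.000127), from 19.1 ± 0.749 to 8.96 ± 2.26 CPM (SD, n = 4).

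Grin1 had 2.74, 2.99, 3.55 and 2.91 CPM in the controls and 1.48, 2.26, 1.92 and 1.38 CPM in the 53BP1KO libraries. The groups did not overlap, and Grin1 fell by 0.82 (SE 0.23, edgeR adjusted p = 0.0157), a call lost without 53BP1KO library 1, 53BP1KO library 4 or control 3 (adjusted p = 0.0548, 0.0589 and 0.0501). In the GENCODE annotation Grin1 shares 1307 exon bases with Grin1os on the opposite strand, and the strand setting of the counting is not given, so reads of the pair may be mixed. Grin2c, the subunit gene of cerebellar granule cells and some astrocytes, had 2.41, 4.29, 2.97 and 2.07 CPM in the controls and 1.53, 1.22, 1.18 and 2.01 CPM in the 53BP1KO libraries. Control 4 and 53BP1KO library 4 nearly met, and Grin2c fell by 0.96 (SE 0.28, edgeR adjusted p = 0.0202). Its call was lost without control 2 (adjusted p = 0.0882) or 53BP1KO library 3 (adjusted p = 0.0562).

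Grin3a encodes a subunit that lowers calcium entry through NMDA receptors and is typical of developing tissue. It was the most abundant NMDA gene per kilobase, with 32.3, 27.3, 32.8 and 28.2 CPM in the controls and 29.6, 38.4, 29.7 and 27.5 CPM in the 53BP1KO libraries. The groups overlapped, with 53BP1KO library 2 above every control (log2 fold change 0.05, 95% interval -0.20 to 0.30), and without that library the sign turned (-0.063). The length-scaled share of Grin3a in the class was 56.8% ± 3.98 in the controls and 70.4% ± 0.386 in the 53BP1KO libraries, that of Grin2a was 18.1% ± 1.21 and 10.03% ± 1.79, and that of Grin1 was 9.84% ± 0.746 and 6.75% ± 0.875 (SD, n = 4). Grin2b, the embryonic Grin2 gene of neurons, averaged 7.04 ± 2.74 and 5.84 ± 1.84 CPM (log2 fold change -0.29, edgeR adjusted p = 0.447), and Grin2d averaged 0.781 ± 0.235 and 0.963 ± 0.225 CPM (0.30, adjusted p = 0.575). Grin3b had at most 7 counts in any library.

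Among the metabotropic glutamate receptor genes, 1 of 6 tested passed, as lower (16.7%, near the 13.9% of all genes). Grm3 had 152, 147, 157 and 168 CPM in the controls and 116, 117, 110 and 118 CPM in the 53BP1KO libraries. The groups were far apart relative to their spread, and Grm3 fell by 0.43 (SE 0.08, edgeR adjusted p = 0.000919), from 156 ± 8.86 to 115 ± 3.57 CPM (SD, n = 4). Grm5 encodes the group I receptor of radial glia, astrocytes and neurons that couples to calcium release. It had 202, 211, 222 and 216 CPM in the controls and 237, 250, 212 and 225 CPM in the 53BP1KO libraries. 53BP1KO library 3 lay within the controls, and the log2 fold change was 0.12 (95% interval -0.06 to 0.29, edgeR adjusted p = 0.309).

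In group III, whose receptors sit mostly on nerve terminals, Grm4 had the highest level, with 5.65, 7.16, 6.64 and 8.47 CPM in the controls and 6.79, 6.62, 6.76 and 8.39 CPM in the 53BP1KO libraries. The groups overlapped, with library 4 highest in each (log2 fold change 0.04, 95% interval -0.29 to 0.37). Grm7 and Grm8 were low in every library and had log2 fold changes of 0.40 and -0.48 (edgeR adjusted p = 0.611 and 0.478). Grm2 had at most 12 counts and Grm6, the receptor of retinal ON bipolar cells, at most 17 counts in any library.

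**Figure D3:**
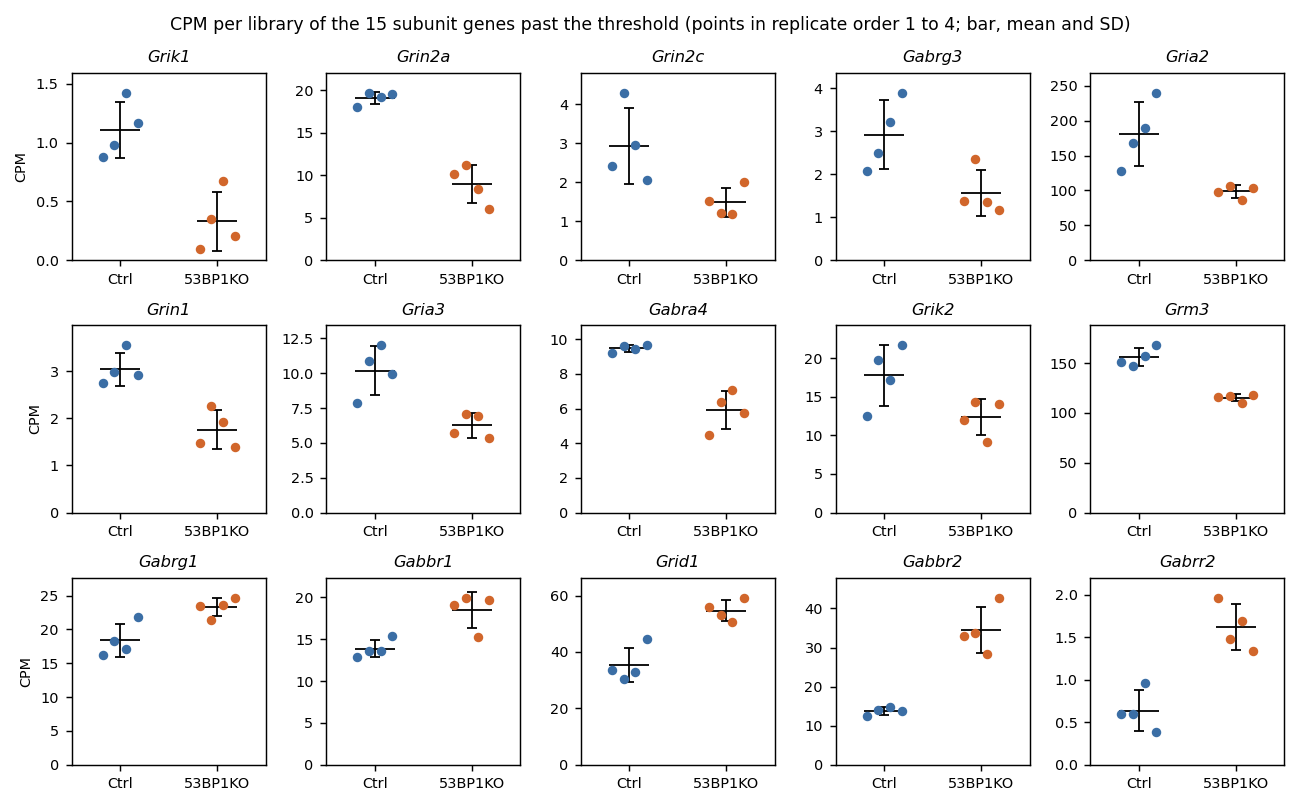
Normalised read count in CPM of the 15 subunit genes past the threshold, 1 panel per gene with its own linear axis from 0, points for single libraries in replicate order, and bars for the mean and SD of 4 libraries. The 53BP1KO points lie wholly below the controls for Gria2, Gria3, Grin1, Grin2a, Grin2c, Grik1, Grm3 and Gabra4 and wholly above them for Grid1, Gabbr2 and Gabrr2.

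GABA-A receptors are chloride channels, most often of alpha, beta and gamma subunits, and many of their genes stand in clusters. On chromosome 5 the order is Gabrg1, Gabra2, Cox7b2, Gabra4 and Gabrb1. Gabra2, an alpha subunit gene of the embryonic brain, had 35.5, 34.9, 42 and 8.79 CPM in controls 1 to 4 and 44.2, 45.7, 43.6 and 37.1 CPM in the 53BP1KO libraries. Control 4 was 3.97-fold below the lowest other control. Gabrb1, a beta subunit gene of the same cluster, had 12.8, 16.2, 14.1 and 5.50 CPM in the controls and 15.4, 13.9, 13.4 and 13.2 CPM in the others, with control 4 2.32-fold below the next. Neither gene passed: the log2 fold change of Gabra2 was 0.49 (SE 0.30, edgeR adjusted p = 0.248) and 0.18 without control 4 (adjusted p = 0.242), and that of Gabrb1 was 0.20 (adjusted p = 0.56) and -0.05 without control 4. With no filter on low counts, the edgeR adjusted p of Gabra2 was 0.000145, the lowest over the alternatives, whose highest was 0.46.

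The other genes of this cluster did not share the low value. Gabra4, an alpha subunit gene of receptors outside synapses, had 9.21, 9.61, 9.42 and 9.63 CPM in the controls and 4.48, 6.36, 7.05 and 5.74 CPM in the 53BP1KO libraries. The controls agreed closely and all 53BP1KO libraries were lower, so that Gabra4 fell by 0.69 (SE 0.15, edgeR adjusted p = 0.003), from 9.47 ± 0.197 to 5.91 ± 1.09 CPM (SD, n = 4). Gabrg1, a gamma subunit gene expressed in glia, had 16.2, 18.2, 17.2 and 21.9 CPM in the controls and 23.4, 21.4, 23.6 and 24.7 CPM in the 53BP1KO libraries. Control 4 was the highest control here and lay above 53BP1KO library 2. Gabrg1 rose by 0.35 (SE 0.11, edgeR adjusted p = 0.0327), a call lost without any 1 of controls 1, 2 and 3 or of 53BP1KO libraries 1, 3 and 4 (adjusted p from 0.0564 to 0.101) and with upper-quartile scaling (adjusted p = 0.0543).

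**Figure D4:**
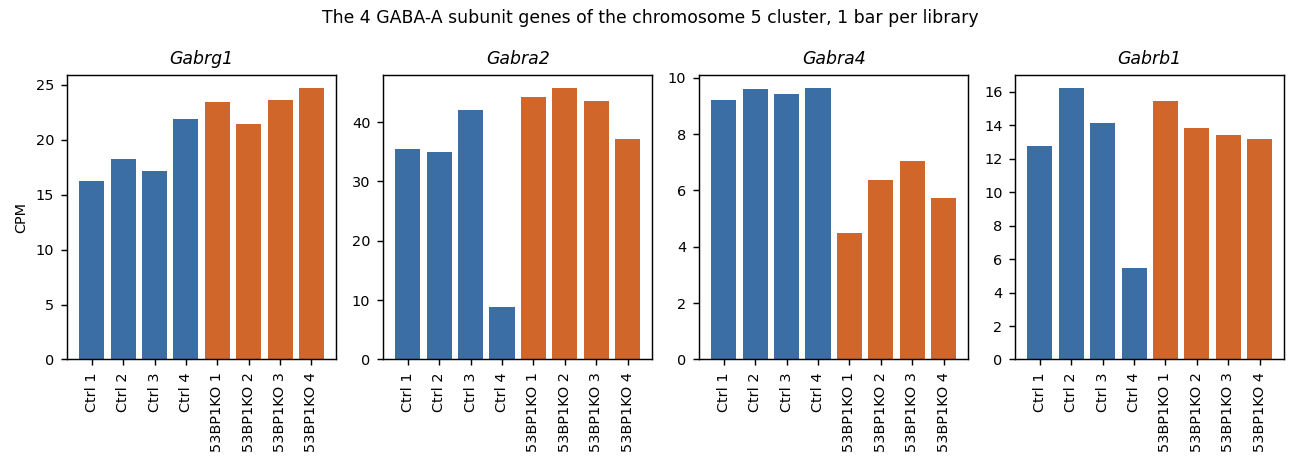
Normalised read count in CPM of the 4 GABA-A subunit genes of the chromosome 5 cluster in their order along the chromosome, 1 bar per library from 0, blue for controls and orange for 53BP1KO libraries. Control 4 is low for Gabra2 and Gabrb1 only, at 8.79 and 5.50 CPM, and not for Gabrg1 or Gabra4.

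Control 4 was below 0.5 times every other control for 336 of the 15021 genes tested (2.24%), and controls 1, 2 and 3 were so for 209, 29 and 106 genes. It was above 2 times every other control for 148 genes, and controls 1, 2 and 3 were so for 17, 67 and 13 genes. Among the subunit genes, control 4 was below 0.5 times every other control for Gabra2, Gabrb1 and Gabra3. Gabra3, an X-linked alpha subunit gene of immature neurons, had 6.69, 5.92, 5.67 and 2.20 CPM in the controls and 4.92, 4.44, 5.24 and 4.11 CPM in the 53BP1KO libraries. Its log2 fold change was -0.14 with all libraries (edgeR adjusted p = 0.726) and -0.39 without control 4 (adjusted p = 0.0689, with up to 0.97 over all alternatives). The mesenchymal markers moved with this library as well, at 77.6 CPM in control 4, 29.5 to 34.2 CPM in the other controls and 9.70 to 12.2 CPM in the 53BP1KO libraries. Their part in the receptor values was not tested.

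The remaining GABA-A genes were low. On chromosome 7, Gabrg3 had 2.08, 2.50, 3.22 and 3.88 CPM in the controls and 1.38, 2.35, 1.35 and 1.17 CPM in the 53BP1KO libraries. 53BP1KO library 2 lay among the controls, and Gabrg3, a gamma subunit gene, fell by 0.94 (SE 0.29, edgeR adjusted p = 0.0227). The call was lost without control 3 or 4 or 53BP1KO library 1, 3 or 4 (adjusted p from 0.0509 to 0.0781). Gabrb2 on chromosome 11 averaged 1.74 ± 0.25 and 1.88 ± 0.587 CPM (log2 fold change 0.07, edgeR adjusted p = 0.869). Gabra6 in the same cluster, a subunit gene of cerebellar granule cells, had at most 4 counts in any library. On the X chromosome, Gabrq had 1.04, 1.57, 0.967 and 1.10 CPM in the controls and 0.689, 0.523, 0.733 and 0.922 CPM in the 53BP1KO libraries, without overlap but not past the threshold (log2 fold change -0.68, edgeR adjusted p = 0.159). Gabre had at most 25 counts, Gabra5 13, Gabrp 5 and Gabrd 2.

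The rho subunits form GABA receptors known from the retina, and 2 of their 3 genes were tested. Gabrr2 had 0.603, 0.597, 0.967 and 0.388 CPM in the controls and 1.97, 1.48, 1.69 and 1.34 CPM in the 53BP1KO libraries. All 53BP1KO libraries were above all controls, and Gabrr2 rose by 1.34 (SE 0.34, edgeR adjusted p = 0.00912). Gabrr1, its neighbour on chromosome 4, averaged 0.613 ± 0.326 and 0.416 ± 0.139 CPM (log2 fold change -0.59, edgeR adjusted p = 0.429). Gabrr3 failed the filter, with 2, 7, 10 and 4 counts in the controls and 1, 0, 0 and 0 in the 53BP1KO libraries. The 4 retinal markers summed to 1.16 to 2.13 CPM in the controls and 0.738 to 2.35 CPM in the others.

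GABA-B receptors need 1 subunit of each of their 2 genes, of which Gabbr1 binds GABA and Gabbr2 carries the complex to the surface and couples it to G proteins. Both rose. Gabbr2 had 12.4, 14.0, 14.8 and 13.8 CPM in the controls and 33.1, 33.7, 28.4 and 42.8 CPM in the 53BP1KO libraries. The lowest 53BP1KO library stood far above the highest control, and Gabbr2 rose 2.52-fold (log2 fold change 1.33, SE 0.13, 95% interval 1.06 to 1.61, edgeR adjusted p = 3.63e-06). Gabbr1 had 12.9, 13.6, 13.6 and 15.3 CPM in the controls and 19.1, 19.9, 15.3 and 19.6 CPM in the 53BP1KO libraries. 53BP1KO library 3 met control 4, and Gabbr1 rose by 0.42 (SE 0.12, edgeR adjusted p = 0.0159), a call lost without 53BP1KO library 4 (0.38, adjusted p = 0.0598, with 0.0019 to 0.0598 over all alternatives). Scaled by exon length, Gabbr2 made up 53.2% ± 2.03 of the pair in the controls and 68.0% ± 2.45 in the 53BP1KO libraries (SD, n = 4).

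Glycine receptors are the chloride channels of spinal cord and brainstem inhibition, with ligand-binding alpha subunits and the beta subunit of Glrb that anchors them to gephyrin. Glrb had 4.60, 6.62, 6.13 and 9.51 CPM in the controls and 7.77, 7.32, 7.33 and 7.55 CPM in the 53BP1KO libraries. The 53BP1KO libraries agreed closely and lay within the spread of the controls (log2 fold change 0.16, 95% interval -0.23 to 0.56, edgeR adjusted p = 0.545). The alpha genes all failed the filter. Glra1 had control counts of 0, 11, 4 and 0, and 0 in every 53BP1KO library, Glra4 had 2, 4, 3 and 4 against 0, 0, 1 and 0, and Glra2 and Glra3 had at most 7. With no filter on low counts, Gabrr3 and Glra1 passed as lower (edgeR adjusted p = 0.0132 and 0.0176), in a fit that called 15.2% of 30508 genes. That fit had 2879 genes higher and 1754 lower, with a median log2 fold change of -0.13 over all genes. The Glra1 call rests on the few counts of controls 2 and 3.

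The proteins that work with these receptors were followed in 5 lists. Of the auxiliary subunits of AMPA and kainate receptors, 14 of 16 were tested, 3 were higher and 5 lower (median log2 fold change -0.28). These 8 are 57.1% of the genes tested, beside 30.0% of all genes (16.1% higher and 13.9% lower). The largest rise was that of Cacng3, a transmembrane AMPA receptor regulatory protein gene, with 0, 8, 6 and 1 counts in the controls and 54, 21, 56 and 35 in the 53BP1KO libraries. This gave 0.221 ± 0.221 and 2.28 ± 0.769 CPM (log2 fold change 3.32, SE 0.56, edgeR adjusted p = 0.000489). Gsg1l, which encodes another AMPA receptor auxiliary protein, rose from 7.11 ± 3.00 to 15.2 ± 1.36 CPM (1.09, adjusted p = 0.00446). Cacng4 fell by 0.70 (edgeR adjusted p = 0.0181), or by 0.42 without control 4, with limma voom not past the threshold (adjusted p = 0.0601), and Cacng8 fell by 0.66 (adjusted p = 0.000579). Among glutamate receptor scaffolds, 16 of 18 were tested, 1 rose and 2 fell (median -0.03), a share of 18.8% that lies below the 30.0% of all genes. Homer1, which links group I metabotropic receptors to other scaffolds, fell from 199 ± 15.8 to 130 ± 5.30 CPM (by 0.61, adjusted p = 9.91e-05), Dlgap4 fell by 0.44, and Dlg2, the gene of PSD-93, rose from 0.850 ± 0.453 to 3.39 ± 0.576 CPM (1.98, adjusted p = 0.000408).

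Of the scaffolds and auxiliary subunits of inhibitory receptors, 16 of 16 were tested, 4 were higher and 2 lower (median -0.10), a share of 37.5%, near the 30.0% of all genes. The Kctd proteins bind the GABA-B receptor and shape its response, and their 3 listed genes went in different directions. Kctd12 was the most abundant and fell from 106 ± 7.28 to 65.3 ± 4.35 CPM (by 0.70, SE 0.09, edgeR adjusted p = 4.71e-05). Kctd8 fell by 1.53 from a low level (adjusted p = 0.0283), a call lost without control 2 or 3 or 53BP1KO library 1, 2 or 4 (adjusted p from 0.0573 to 0.134). Kctd16 had control counts of 0, 4, 0 and 2, with 20, 9, 16 and 16 in the 53BP1KO libraries (3.14, edgeR adjusted p = 0.00273). Gabarap, named for its binding to GABA-A receptors, rose by 0.69 (adjusted p = 0.000921).

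Transmitter synthesis and transport had 7 higher genes among 12 tested of 17 (median 0.46), a share of 58.3%, beside 16.1% of all genes higher. Slc1a2, the glial glutamate transporter gene, rose from 212 ± 46.0 to 459 ± 54.9 CPM (a log2 difference of 1.11, SE 0.15, edgeR adjusted p = 6.05e-05), with control 4 lowest at 145 CPM. Slc6a9, the glial glycine transporter gene, had 15.1, 11.8, 13.0 and 12.9 CPM in the controls and 26.2, 33.0, 26.2 and 28.9 CPM in the 53BP1KO libraries (1.11, SE 0.12, adjusted p = 8.51e-06). Abat, the gene of GABA transaminase, rose by 0.99 and Slc6a11, the gene of the GABA transporter GAT-3, rose by 0.83. The vesicular transporter of GABA and glycine, Slc32a1, had under 3 counts in every library. Of the 7 astrocyte markers, 6 were higher (85.7%, beside 16.1% of all genes). Their sum was 273 to 339 CPM in the controls and 664 to 801 CPM in the 53BP1KO libraries. Slc1a2 is on both lists and carries most of that sum, so the 2 lists are not independent. The part of astrocytes in the receptor values was not tested.

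Of the 6 chloride cotransporter genes, 1 passed (16.7%, below the 30.0% of all genes). Slc12a2, the gene of the importer NKCC1, rose from 354 ± 41.1 to 474 ± 15.9 CPM (a log2 difference of 0.42, SE 0.09, edgeR adjusted p = 0.00343). Slc12a5, the gene of the neuronal exporter KCC2, had 3.62, 3.96, 3.48 and 3.23 CPM in the controls and 2.61, 2.61, 2.14 and 4.02 CPM in the 53BP1KO libraries, and did not pass (-0.31, edgeR adjusted p = 0.304). Of the 12 neuronal markers, Tubb3 and Dcx were higher and Elavl4, Snap25 and Syt1 lower. The Tubb3 call (log2 fold change 0.68, edgeR adjusted p = 0.0348, and 1.06 without control 4) was lost with DESeq2, with robust dispersion and without any 1 of controls 1, 2 and 3 or 53BP1KO libraries 1, 3 and 4, with adjusted p from 0.0564 to 0.106. The Elavl4 call was lost with no filter on low counts and without 53BP1KO library 4 (edgeR adjusted p = 0.0554 and 0.0588). Skeletal muscle markers summed to 32.7 to 44.3 CPM in the controls and 18.4 to 21.1 CPM in the others, with 3 of 4 tested lower. Endothelial markers summed to 5.81 to 12 and 2.05 to 5.05 CPM, with Cldn5 under 3 counts in every library, and microglial markers to 1.10 to 2.66 and 0.629 to 1.75 CPM. The 7 oligodendrocyte lineage markers summed to 2650 to 2972 and 2453 to 2920 CPM, with 3 higher, Sox10 and Mbp among them, and Pdgfra and Cspg4 lower. Of the 10 progenitor markers 5 were higher and 3 lower. Called in either direction were 41.7% of the neuronal and 75% of the muscle markers tested. For oligodendrocyte lineage and progenitor markers the shares were 71.4% and 80%, beside 30.0% of all genes. The part of these cell types in the receptor values was not tested.

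**Figure D5:**
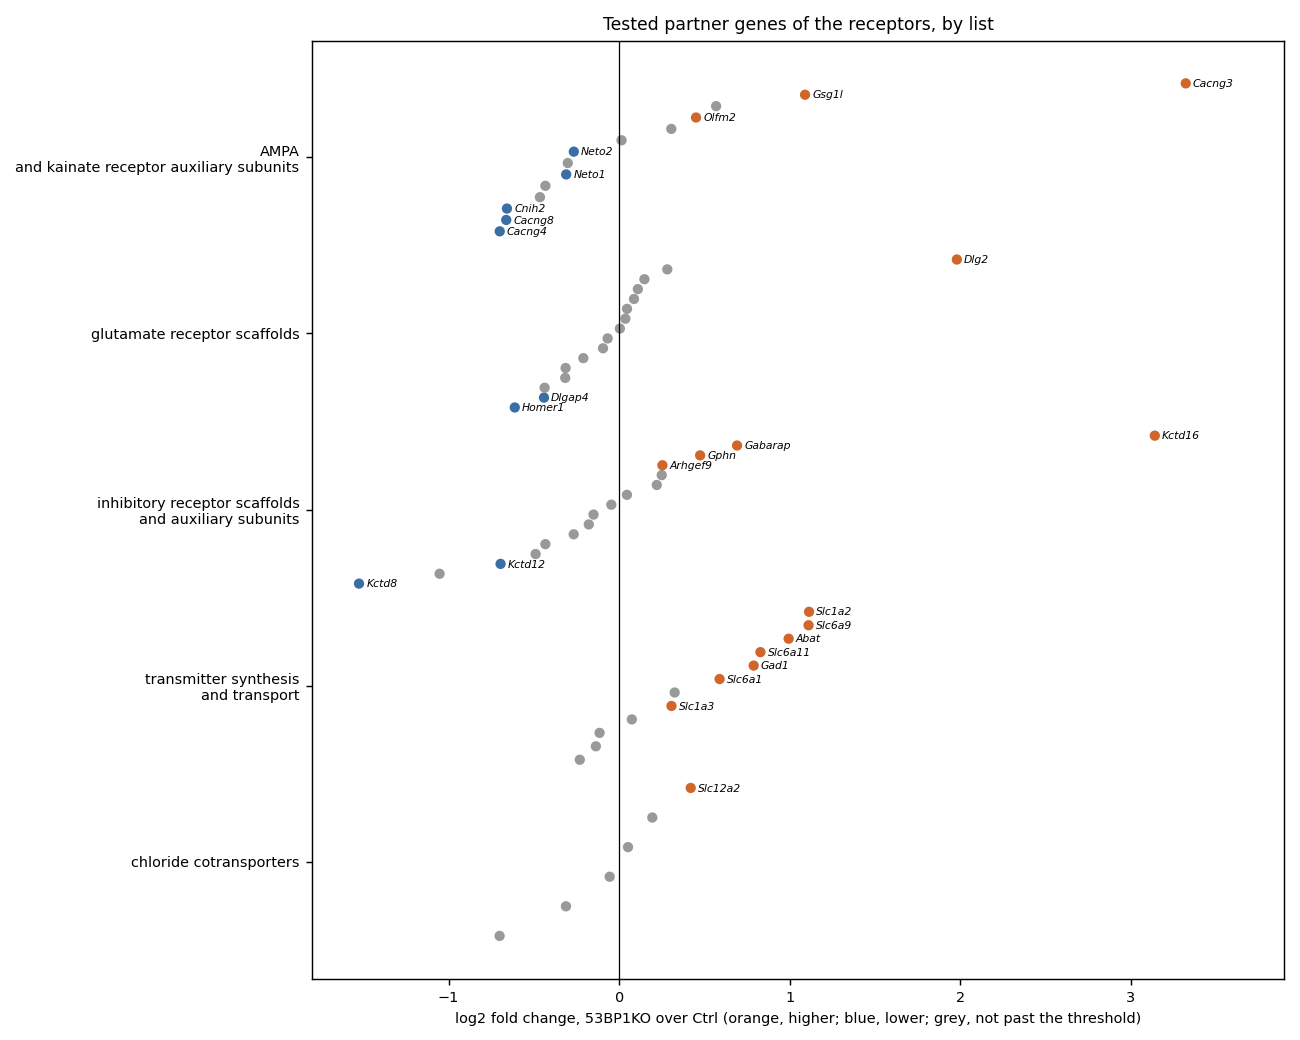
Log2 fold change of the tested partner genes, 53BP1KO over control, grouped by the 5 lists and ordered within each, with genes past the threshold named, orange for higher and blue for lower. The named genes of transmitter synthesis and transport all lie above 0, while the auxiliary subunits lie on both sides, from Cacng4 at -0.70 to Cacng3 at 3.32.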

How the data were processed

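The authors deposited whole-number counts of reads per gene, 32499 genes in 8 libraries made with a stranded total RNA kit. CASAVA, HTSeq 0.6.1p1, mm9 and NCBIM37 are named, per the submitters' processing notes; which aligner, annotation and strand setting were used is not given in the sources used here. After filterByExpr and TMM scaling, edgeR 4.0.16 (R 4.3.3) fitted its quasi-likelihood model, Benjamini-Hochberg over all 15021 genes, threshold 0.05, with no other covariate. CPM use TMM-adjusted library sizes. The SE is the size of the log2 fold change over the root of F. The fit was tested on simulated counts first. Exon lengths came from GENCODE mouse release 21 by symbol, found for 52 of 52 genes, upstream windows from RefSeq; both are on a later build than the counts. Class sums and shares were not tested. Values per library are given for subunit genes past the threshold and the most abundant tested one of each class, and up to 4 called genes with the largest changes are named per partner list. Slc12a5 and Slc32a1, and the values per library of Gria4 and Gabra3, were added after they were seen. Members and lists were chosen with earlier results of these data known. Alternatives were DESeq2 1.42.0, limma 3.58.1 voom with quality weights, RLE or upper-quartile scaling, robust dispersion, no filter or at least 1 CPM in 4 libraries, a replicate block and leaving out each library. Some genes of the lists are counted but not reported here by name.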

Additional observations from a re-analysis of the deposited data

Results flagged for a closer look

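For each of the 37 tested genes and each group of 4 libraries, the gap between the outermost library and its nearest neighbour was divided by the range of the group and set against Dixon's 95% critical value for 4 libraries. Of 74 such tests, 2 passed, and chance gives about 1 in 20. Grin2d among the 53BP1KO libraries gave 0.925, with library 4 highest at 1.30 CPM and the other 3 between 0.836 and 0.871 CPM. Grm4 among the 53BP1KO libraries gave 0.904, with library 4 highest at 8.39 CPM and the other 3 between 6.62 and 6.79 CPM.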

How the results depend on the processing

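Under the alternatives, 528 values of the 37 tested genes kept direction and side of the threshold, 26 lost the threshold, 16 gained it and 16 changed sign; genes that changed sign were not past the threshold in the fit with all libraries. With 5 genes higher and 10 lower in that fit, the alternatives other than leaving out a library gave 4 to 7 higher and 10 to 13 lower. Leaving out 1 library gave 3 to 6 higher (3 without 53BP1KO library 4) and 6 to 11 lower (6 without 53BP1KO library 1 or control 3). Partner genes lower were 9, and 15 with voom; the cause was not tested. Among the genes voom added, Gria1 and Gria4 were lower and Grik4 was higher. The no-filter fit moved the median log2 fold change of all genes to -0.13.

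Signs changed as follows in log2 fold change, with the lowest and highest value when 1 library was left out: Gabra3 -0.39 to 0.014, Gabrb1 -0.050 to 0.36, Gabrb2 -0.11 to 0.21, Grik3 -0.031 to 0.34, Grik5 -0.14 to 0.062, Grin3a -0.063 to 0.10, Grm4 -0.055 to 0.14 and Grm8 -0.72 to 0.029. With voom Gabrb2 was -0.17 and Grm7 -0.037, and with no filter Grik5 was 0.037. The cause was not tested.

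Whether replicate numbers pair the libraries could not be settled from so few correlations. Same-numbered libraries had deviations correlated at r = 0.254, 0.279, -0.158 and 0.00987 for numbers 1 to 4. Numbers 1 and 2 alone correlated best with their own number. With the number as a replicate block, 6 subunit genes were higher, Gabra2 being added (0.65), and 10 lower, among 2237 higher and 1940 lower genes in all; partner genes were 15 higher and 8 lower. Detection at a minimum of 1 or 10 counts, in place of 3, left 42 or 29 genes detected in all libraries. Depth limits what can be said of the 15 genes that failed the filter, for which a difference was mostly not detectable.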
